A study of Mus musculus with 2 samples.

Results

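Colony-stimulating factors are secreted proteins that drive the survival, growth and maturation of myeloid blood cells, and each acts through its own receptor. The transcripts of 3 factor genes and 5 receptor genes were followed in mouse liver: Csf1 and its receptor Csf1r, Csf2 and its receptor genes Csf2ra, Csf2rb and Csf2rb2, and Csf3 and its receptor Csf3r. They were chosen by symbol in the GENCODE annotation of GRCm38, and all 8 were found among 52636 Ensembl genes in the count tables.

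The study compared livers of wild-type (WT) C57BL/6 mice with livers of C57BL/6 mice whose genotype is given as GBP5-/- (KO). Gbp5 encodes guanylate-binding protein 5, a GTPase induced by interferon. Mice of both genotypes were 9 weeks old and received GalN, or D-galactosamine (800 µg per g body weight), and LPS, or lipopolysaccharide (100 ng per g), for 6 h. LPS is a bacterial endotoxin that activates macrophages, and GalN makes hepatocytes sensitive to it. RNA from 4 livers of each genotype was pooled into 1 library. There are therefore no replicates, no p-values are given, and a difference below is one between these 2 pools. Intervals are exact at 95% and reflect the counting of reads alone. Untreated livers were not analysed here. Whole liver was used, so fewer cells of a type and less RNA per cell cannot be told apart.

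Csf1, or M-CSF, binds the receptor tyrosine kinase CSF1R, on which Kupffer cells and other tissue macrophages depend. Csf2, or GM-CSF, binds a specific alpha chain (Csf2ra) that pairs with a common beta chain (Csf2rb), and signals through JAK2 and STAT5; the mouse has a second, IL-3-specific beta chain, Csf2rb2. Csf3, or G-CSF, acts through CSF3R on neutrophils and their precursors. Csf2 and Csf3 transcripts are scarce in resting cells and rise on activation, and factor transcripts carry AU-rich elements, repeats of ATTTA in the 3′ untranslated region that mark a transcript for rapid decay.

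The densest 30 bases of such repeats in each factor transcript are shown with every ATTTA in capitals, read from the GENCODE M21 transcripts (GRCm38), to set the factor genes side by side.
Csf1 (chr3:107741102-107741131, minus strand): aaggtcATTTAaatatctATTTAaaaaata
Csf2 (chr11:54247324-54247353, minus strand): aaatATTTATTTATTTATTTATTTAttttt
Csf3 (chr11:98702988-98703017, plus strand): gtttATTTAtctctATTTAatATTTAtgca
The Csf2 site holds 5 overlapping repeats, the Csf3 site 3 and the Csf1 site 2. Over the whole 3′ untranslated region, Csf2 had 9 copies of ATTTA in 317 bases, Csf3 had 6 in 669 and Csf1 had 4 in 2111. At least 1 copy was present in 62.4% of 20367 protein-coding genes. The longer element TTATTTATT was found in Csf2 alone among the 8 genes, in 4 overlapping copies; 0.555% of genes had 3 or more. Of the receptor transcripts, Csf1r had 3 copies of ATTTA and Csf2ra, Csf2rb, Csf2rb2 and Csf3r had none. On the promoter side, the RefSeq table (GRCm38.p6) held 5 of the 8 genes: Csf1, Csf2, Csf2ra, Csf2rb2 and Csf3r. Its windows run from 250 bases before to 50 after the start site. In these windows 4 motifs, chosen after these data were seen, were searched on both strands. Matches of 3 of them are shown in capitals. The other GAGGAA match in Csf2rb2, which begins at base 30 counted from the start site, is not shown.
Csf2ra, GAGGAA (chr19:61228412-61228441, minus strand): cctgcagatGAGGAAGAGGAAgcgggagac
Csf3r, GAGGAA (chr4:126024561-126024590, plus strand): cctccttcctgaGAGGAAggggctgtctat
Csf2rb2, GAGGAA (chr15:78305871-78305900, minus strand): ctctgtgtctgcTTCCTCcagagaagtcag
Csf2ra, TGACGTCA (chr19:61228492-61228521, minus strand): cccgcccccggTGACGTCAccgggccccac
Csf1, GGACTTTCC (chr3:107760604-107760633, minus strand): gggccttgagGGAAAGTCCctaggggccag
GAGGAA is a core recognised by PU.1, the myeloid factor encoded by Spi1, and by other ETS proteins. It occurred in the windows of all 3 receptor genes in the table, 2 times in Csf2ra and in Csf2rb2 and 1 time in Csf3r, and not in those of Csf1 and Csf2; 28.3% of 32851 promoter windows held it. The cyclic AMP response element TGACGTCA occurred in Csf2ra, as in 1.79% of windows. The NF-kB form GGACTTTCC occurred in Csf1, as in 0.344%. The matches in Csf2rb2 and Csf1 read in the reverse direction, so their capitals show the complement. A C/EBP form, TTGCNNAA, occurred in Csf2 and in 10.8% of windows. These matches describe letters, not binding, and their part in the differences between WT and KO was not tested. Csf1r, Csf2rb and Csf3 could not be searched.

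The libraries held 19864848 reads assigned to genes in WT and 15750875 in KO, so the floor of 3 reads that a count of 0 allows was 0.151 CPM (reads scaled to the library total) in WT and 0.190 CPM in KO. As a check of the labels, Gbp5 counted 3211 reads in WT against 873 in KO, 0.343 times the WT level (0.318 to 0.370), which goes in the direction of the genotype without being absent. At 1 CPM or more in either library, 14062 genes could be compared, with a median log2 ratio of KO to WT of -0.07. A 2-fold difference in CPM served as a rule of size: 1748 genes, 12.4%, were at least 2-fold lower in KO and 651, 4.63%, at least 2-fold higher, so that 72.9% of these differences were towards lower. The ratio went with the GC content of transcripts. Its median was 0.32 in the lowest of 10 GC bins and -0.87 in the highest, where 43.6% of genes were at least 2-fold lower. The genes followed here are GC-rich, with a median of 54.4%, and the 7 that could be compared lie in the 7th to the 10th of these bins, so the values of these genes and the counts of lists are also given after subtraction of the median log2 ratio of genes of like GC content and exon length. After that correction 921 genes, 6.55%, were at least 2-fold lower and 708, 5.04%, higher, a lower share of 56.5%. How much of the GC trend is technical was not tested.

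Of the 8 genes, 7 reached 1 CPM and could be compared; Csf2 did not. All 7 were lower in KO, against 54.1% of all genes compared. Of the 7, 6 were at least 2-fold lower, against the 12.4% of all genes named above. Every one of the 5 receptor genes was among these 6. The median log2 ratio of the 7 genes was -1.51. After the correction 6 of 7 remained below 0, against 49.5% of all genes, and their median was -0.97 over the 7. Of these, 3 were at least 2-fold lower, namely Csf2ra, Csf3 and Csf2rb, against 6.55% of all genes. Csf1r, Csf3r and Csf2rb2 came to lie short of 2-fold and Csf1 came to lie at 0.02.

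**Figure D1:**
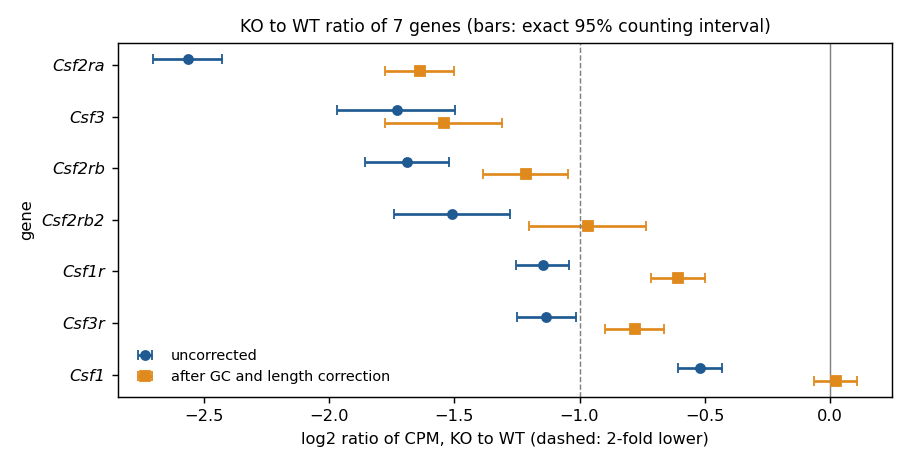
Log2 ratio of CPM in KO to WT for the 7 genes at 1 CPM or more (x axis), by gene (y axis), before (circles) and after (squares) the correction for GC content and length; bars are exact 95% counting intervals and the dashed line marks 2-fold lower. Before the correction 6 genes lie left of the dashed line and Csf1 right of it, and after it Csf2ra, Csf3 and Csf2rb lie left of the line.

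Among the factor genes, Csf1 had the smallest difference. Csf1 (ENSMUSG00000014599, chromosome 3, 107741048 to 107760469, minus strand) is made by stromal, endothelial and other cells and supports macrophages. It had 3045 reads in WT against 1686 in KO, or 153 and 107 CPM. The KO library was thus 1.43-fold lower (1.35 to 1.52), a log2 ratio of -0.52. That is close to the median of -0.54 for the genes of its GC and length bin, and after the correction Csf1 was at 1.02 times the WT level, with an interval from 0.958 to 1.08 that includes 1. The direction of Csf1 thus turned with the correction.

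Il34 encodes the other ligand of CSF1R. It had 200 reads in WT against 145 in KO, a KO level of 0.914 times WT with an interval from 0.733 to 1.14 that includes 1. After the correction it was 1.04 times WT. At this depth no difference was detectable for Il34. The receptor Csf1r and its 2 ligands therefore did not share one ratio: the interval of Csf1r, given below, lies under those of Csf1 and Il34.

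Csf3 (ENSMUSG00000038067, chromosome 11, 98701263 to 98703629, plus strand) is produced by macrophages, endothelium and fibroblasts after endotoxin and mobilises neutrophils. It had 787 reads in WT against 188 in KO, or 39.6 and 11.9 CPM, so KO stood at 30.1% of WT. The log2 ratio was -1.73, and it was -1.54 after the correction, which moved Csf3 least among the 6 genes that were 2-fold lower. Its GC and length bin had a median of -0.19, and 3.09% of the 453 genes in that bin had a ratio as low or lower. Per length, Csf1 and Csf3 had similar levels in WT, 29.0 and 28.0 FPKM (reads scaled to exon length and library total), whereas in KO Csf1 was 2.40 times as high as Csf3.

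Csf2 (ENSMUSG00000018916, chromosome 11, 54247271 to 54249667, minus strand), the factor made mainly by activated lymphocytes and stromal cells, had 2 reads in each library. Both counts are under the floor of 3 reads, so no ratio is given. The related cytokine genes Il3 and Il5, whose receptors use the same beta chain, had 0 reads in both libraries, which allows up to 0.151 and 0.190 CPM. At 6 h these whole-liver pools thus held ample reads of Csf1 and Csf3, and Csf2 at the edge of detection.

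**Figure D2:**
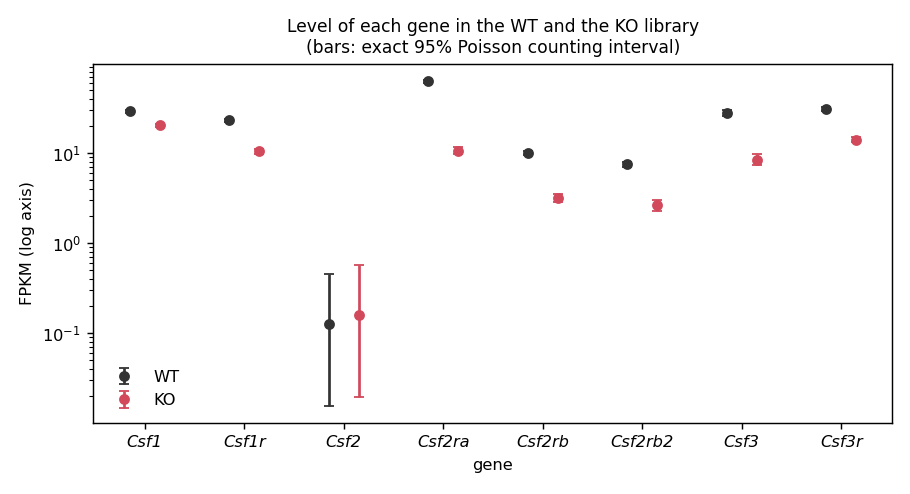
Level of each of the 8 genes (x axis) in FPKM on a log axis (y axis) in the WT library (dark) and the KO library (red); bars are exact 95% Poisson counting intervals. Without correction for GC content, Csf2ra is the highest gene in WT at 62.7 FPKM and number 3 in KO at 10.6 FPKM, and Csf2 rests on 2 reads in each library.

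Of the receptor genes, Csf2ra had the lowest ratio, and Csf2ra and Csf2rb alone of the 5 were still at least 2-fold lower after the correction. Csf2ra (ENSMUSG00000059326, chromosome 19, 61223957 to 61228429, minus strand), the ligand-specific alpha chain, had 3577 reads in WT against 479 in KO, or 180 and 30.4 CPM. This left 16.9% of the WT level in KO (log2 ratio -2.57), the 67th lowest of the 14062 genes compared. Csf2ra is also the most GC-rich of the 8 genes at 62.2%, in the highest GC bin. Its GC and length bin of 398 genes had a median of -0.93, and 45.2% of that bin was at least 2-fold lower. After the correction Csf2ra remained 3.11-fold lower (log2 ratio -1.64), and 2.01% of its bin had a ratio as low or lower. The highest GC bin runs from 57.7% to 75.5% with a median of 59.3%. Csf2ra lies above that median, so part of the GC trend may remain in its corrected ratio.

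Csf2rb (ENSMUSG00000071713, chromosome 15, 78325752 to 78353847, plus strand) encodes the beta chain shared by the receptors for GM-CSF, IL-3 and IL-5. Reads numbered 1463 in WT against 360 in KO, or 73.6 and 22.9 CPM. Csf2rb was 3.22-fold lower in KO (2.87 to 3.63), and 2.32-fold lower after the correction. In its bin of 255 genes 2.35% had a ratio as low or lower.

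Csf2rb2 (ENSMUSG00000071714, chromosome 15, 78282507 to 78305721, minus strand) encodes the IL-3-specific beta chain and lies beside Csf2rb on the opposite strand. It had 703 reads in WT against 196 in KO, or 35.4 and 12.4 CPM, which made it 2.84-fold lower (2.42 to 3.35). After the correction it was 1.95-fold lower, just short of the 2-fold rule. The paired genes are near copies: 92.3% of the Csf2rb2 transcript aligned to that of Csf2rb at 92.9% identity, and 7.20% of its 100-base stretches occur unchanged in Csf2rb. The split of reads between them is therefore uncertain. Their sum does not depend on that split and was 2166 reads in WT and 556 in KO, 3.09-fold lower (2.81 to 3.40). How reads that fit both genes equally were treated is not given in the sources used here. If they were left out, the sum and the levels of both genes are too low. Csf2rb2 took 32.5% of the summed reads in WT (Clopper-Pearson interval 30.5% to 34.5%) and 35.3% in KO (31.3% to 39.4%), which overlap.

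The alpha and beta chains of the GM-CSF receptor did not differ by the same factor before the correction. Per length and without the correction, Csf2ra stood at 6.20 times Csf2rb in WT and at 3.37 times Csf2rb in KO. These levels divide Csf2rb by all its annotated exons together, 7277 bases, whereas its transcript with the longest coding sequence has 4900. The level of Csf2rb may thus be too low in both libraries, but the length used is the same in both. The interval of the Csf2ra ratio, 0.153 to 0.186, lies under that of Csf2rb, 0.276 to 0.349. After the correction the ratios were 0.321 (0.291 to 0.353) and 0.431 (0.383 to 0.484), and these counting intervals still do not overlap. They do not cover error of the correction, which may leave part of the GC trend in Csf2ra and places Csf2rb by its 7277 bases. Whether the corrected difference holds with finer bins or another length was not tested. Il3ra, the alpha chain for IL-3 and likewise GC-rich, had 457 and 108 reads and was 3.36-fold lower (2.71 to 4.18); after the correction its log2 ratio went from -1.75 to -0.82, short of 2-fold. Il5ra had no reads in either library.

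Csf1r (ENSMUSG00000024621, chromosome 18, 61100598 to 61132149, plus strand), the receptor of macrophages and their precursors, had 2660 reads in WT against 952 in KO, or 134 and 60.4 CPM. It was 2.22-fold lower in KO (2.06 to 2.39). After the correction it was 1.52-fold lower (log2 ratio -0.61), and 15.4% of the 337 genes in its bin had a ratio as low or lower. Its last exons overlap Hmgxb3 on the opposite strand over 15.1% of exon bases; Hmgxb3 had 279 and 133 reads and was 1.66-fold lower. Whether counting used the strand is not given in the sources used here, so reads in the overlap could have been left out or given to either gene.

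Csf3r (ENSMUSG00000028859, chromosome 4, 126024550 to 126044440, plus strand), the G-CSF receptor of the neutrophil lineage, had 2220 reads in WT against 803 in KO, or 112 and 51.0 CPM. KO was at 45.6% of WT (log2 ratio -1.13), and at 58.3% after the correction, short of 2-fold. Csf1r and Csf3r had nearly the same ratio: that of Csf3r was 1.01 times that of Csf1r, with a counting interval from 0.904 to 1.13. With Csf3 lower by more than its receptor, Csf3 went from 0.905 times Csf3r per length in WT to 0.598 times in KO.

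Ordered by ratio from the lowest, the 7 genes were Csf2ra, Csf3, Csf2rb, Csf2rb2, Csf1r, Csf3r and Csf1. Counting error separated Csf2ra from Csf3, Csf2rb2 from Csf1r and Csf3r from Csf1. It did not separate Csf3 from Csf2rb, Csf2rb from Csf2rb2 or Csf1r from Csf3r. After the correction Csf1r and Csf3r changed places, at 0.657 (0.610 to 0.708) and 0.583 (0.537 to 0.632) times WT, with intervals that overlapped. The intervals of Csf2ra (0.291 to 0.353) and Csf3 (0.292 to 0.404) overlapped too. So did that of Csf2rb (0.383 to 0.484) with Csf3 and Csf2rb2 (0.435 to 0.601), and that of Csf2rb2 with Csf3r. Of neighbours in the corrected order, only Csf1r and Csf1 had intervals that did not overlap. Ordered by level in FPKM, WT had Csf2ra at 62.7, Csf3r at 31.0, Csf1 at 29.0, Csf3 at 28.0, Csf1r at 23.2, Csf2rb at 10.1, Csf2rb2 at 7.47 and Csf2 at 0.126. The intervals of Csf3r and Csf1, and those of Csf1 and Csf3, overlapped. In KO the order was Csf1 at 20.3 FPKM, Csf3r at 14.1, Csf2ra at 10.6, Csf1r at 10.5, Csf3 at 8.45, Csf2rb at 3.14, Csf2rb2 at 2.63 and Csf2 at 0.159. There the intervals of Csf2ra and Csf1r, and of Csf2rb and Csf2rb2, overlapped. In these levels, which were not corrected for GC content, Csf2ra thus went from place 1 to place 3 and Csf1 from place 3 to place 1. The order of corrected levels was not examined.

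**Figure D3:**
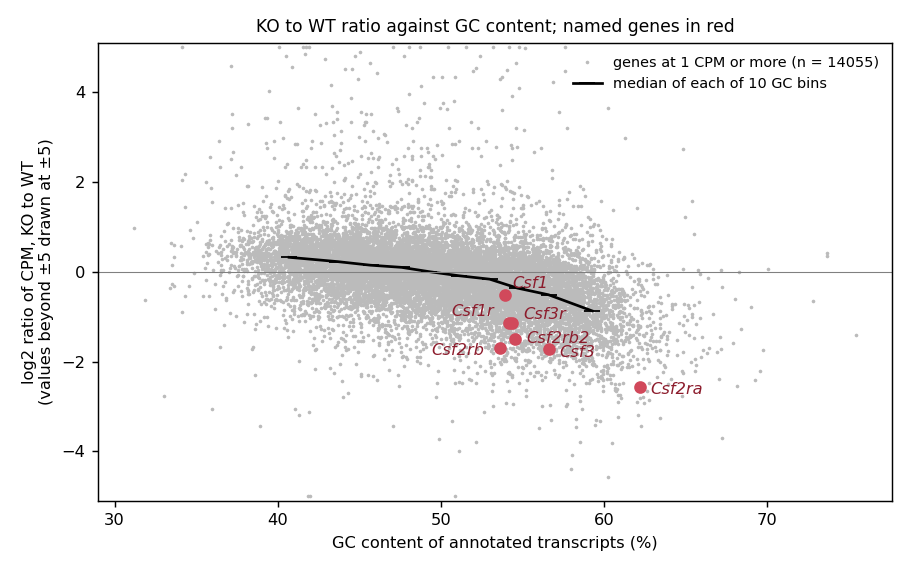
Log2 ratio of CPM in KO to WT (y axis) against the GC content of annotated transcripts in percent (x axis) for genes at 1 CPM or more (grey) and for the 7 named genes (red); the black line joins the medians of 10 GC bins, which go from 0.32 to -0.87. Csf1 lies near the line, and Csf2ra lies below it at the GC-rich end.

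Pairs of values in 2 libraries say little about likeness, but the protein-coding genes nearest to Csf2ra in log2 FPKM of both libraries were Marcks (64.1 FPKM in WT and 12.8 in KO, distance 0.27 on the log2 scale) and Crlf2, another cytokine receptor gene (55.5 and 13.8 FPKM, distance 0.42). For Csf3 the nearest were Ezr and Mapk15, for Csf1r Dbnl and Scaf1, and for Csf3r Akt1 and Irf2bp2, at distances from 0.01 to 0.08.

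Genes that carry or restrain the signal of these receptors were lower in part. Of 26 such genes listed, called transducers here, 12 were at least 2-fold lower and none higher, with a median log2 ratio of -0.71. After the correction 6 were lower and the median was -0.54. These counts stand beside 12.4% of all genes before and 6.55% after the correction, as do those of the lists that follow. Jak2, the kinase bound to the beta chain, was 2.08-fold lower (1.90 to 2.27) and kept a log2 ratio of -1.24 after the correction. Of the STAT5 pair that it activates, Stat5b was 2.39-fold lower (2.11 to 2.71) and Stat5a 1.38-fold (1.15 to 1.66); after the correction they were at -0.71 and 0.55, on opposite sides of 0. The lowest member was Dok1, an adaptor that restrains such signals, at -1.75. The list also holds the restraining genes Dok2 (-1.47), Ptpn6 (-1.05), Inpp5d (-0.47) and Cbl (-0.14). The counts therefore do not measure how much signal passes.

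Target and feedback genes lay on both sides of 0. They are not specific to the receptors followed here, whole liver does not show their cells of origin, and the signal behind their levels was not tested. Of 10, 4 were at least 2-fold lower and none higher, with a median of -0.99 and, after the correction, 4 lower and 2 higher with a median of -0.47. Pim1, a kinase gene induced by STAT5 and STAT3, was 3.22-fold lower (3.09 to 3.37), or at -1.33 after the correction. Socs3, the feedback inhibitor that binds CSF3R, was 2.93-fold lower (2.84 to 3.04), or at -0.63 after the correction. Cish, the feedback gene most closely tied to STAT5, stood on the other side, with 222 reads in WT and 315 in KO, 1.79 times as high (1.50 to 2.13), and at 1.38 on the log2 scale after the correction.

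Transcription factors of the myeloid lineage were lower in most cases, 9 of 12 by at least 2-fold with a median of -1.36, or 6 of 12 with a median of -0.96 after the correction. Whole liver does not show which cells these transcripts came from. That holds also for Cebpa, Cebpb and Cebpd, which are among the 9 and had 271, 848 and 258 CPM in WT. Spi1, which encodes PU.1, had 3237 reads in WT and 682 in KO and was 3.76-fold lower (3.46 to 4.09). Its log2 ratio after the correction was -1.40. A link between Spi1 and the receptor genes was not tested. Egr2 was the highest at 0.13. Among 9 genes for proteins that bind AU-rich elements or degrade cytokine transcripts, 3 were at least 2-fold lower, or 1 after the correction, with a median of -0.16. Zfp36, whose product tristetraprolin destabilises Csf2 and other factor transcripts, was 1.14 times as high in KO (1.11 to 1.16), or 1.45 times after the correction. Zfp36l2 was 3.27-fold lower and Elavl1, which encodes the stabilising protein HuR, was 1.71 times as high, at -1.35 and 0.58 on the log2 scale after the correction. Growth factors and receptors of other blood lineages had a median of -0.05, near that of all genes. Of 8 compared 1 was at least 2-fold lower, a share like that of all genes: Flt3l, the ligand for FLT3, had 73 and 17 reads, a log2 ratio of -1.77 that was -1.41 after the correction. Il7 was the highest at 0.69.

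Markers of the cells that carry these receptors were lower to differing extents, and their part in the receptor differences was not tested. Of 14 Kupffer cell and macrophage markers, 13 were below 0, against 54.1% of all genes, and 6 passed 2-fold towards lower. Their median was -0.72, beside -1.15 for Csf1r. Their summed level, in which a few abundant genes weigh most, went from 1672 to 754 CPM. Clec4f, restricted to Kupffer cells, was at a log2 ratio of -1.17, Adgre1 (F4/80) at -0.66, Marco lowest at -1.77 and Slc40a1 highest at 0.19. The markers span values on both sides of that of Csf1r. After the correction the macrophage markers kept 6 at 2-fold lower with a median of -0.81, against -0.61 for Csf1r.

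Most neutrophil markers lay nearer to 0 than Csf3r. Of 13 compared, 1 was at least 2-fold lower, Ltf on 36 and 13 reads, with a median of -0.40; the summed level of the 16 listed went from 422 to 354 CPM. S100a8 had a KO level of 1.04 times WT, with an interval from 0.977 to 1.12, and was at -0.19 after the correction. After the correction all 13 were below 0, against 49.5% of all genes. Their median was then -0.47, beside -0.78 for Csf3r. Then 4 of the 13 lay below Csf3r: Ltf at -1.12, Cxcr2 at -1.05, Fpr1 at -0.95 and Ngp at -0.89. Before the correction Stfa2l1 was the highest at 0.22, and the granule gene Mpo was at 3 and 0 reads.

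Monocyte and dendritic cell markers had a median of 0.04, and of -0.25 after the correction, with H2-Ab1 lowest at -1.89, the only one of 9 at 2-fold, and Siglech highest at 0.45. T and NK cell markers, of lineages that can make Csf2, had 7 of 11 at least 2-fold lower and a median of -1.29, from Cd247 at -3.44, on 41 and 3 reads, to Cd3g at -0.39. Genes of leukocytes in general had a median of -0.58, with Coro1a lowest at -1.06 and Ptprc (CD45) highest at -0.31. Eosinophil, basophil and mast cell markers, cells that use the same beta chain, did not reach 1 CPM, and Epx and Fcer1a had no reads. Possible sources of Csf1 and Csf3 beside macrophages had medians of -0.16 (endothelium) and -0.25 (stellate cells and fibroblasts). Endothelial markers ran from Stab1 at -1.09 to Tek at 0.44, and fibroblast and stellate markers from Col3a1 at -1.55 to Lrat at 0.92. Hepatocyte markers, which define the tissue, had a summed level of 68994 CPM in WT and 108051 in KO and a median of 0.40, from Apoa1 at -0.01 to Alb at 0.85, or 1.80 times as high.

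**Figure D4:**
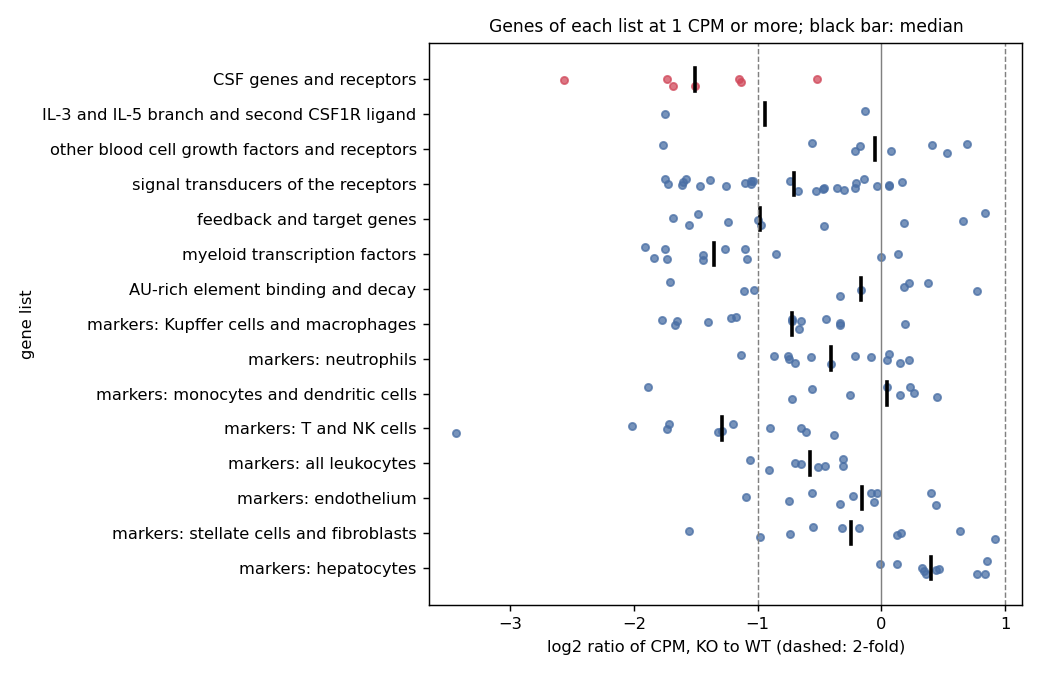
Log2 ratio of CPM in KO to WT (x axis) for genes at 1 CPM or more in each list (y axis); each point is 1 gene, the black bar is the median and dashed lines mark 2-fold. The 7 colony-stimulating factor and receptor genes in the top line have a median of -1.51, against 0.40 for hepatocyte markers in the bottom line.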

How the data were processed

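The 2 RNA-seq libraries of mouse liver, 1 per genotype, were analysed. The tools TopHat2 and HTSeq 0.6.1 and the build GRCm38 come from the submitters' processing notes. The annotation release, use of strand and any filter were not stated in the labels or files. The values deposited by the authors are called FPKM in the file names but are whole-number read counts, with 2707 WT values of exactly 1, and were used as counts. The 209 rows that name no gene were dropped; their share of counts was 0.652% (WT) and 0.496% (KO).

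CPM used the total over all 52636 Ensembl rows; FPKM also used the union of exons in GENCODE M21 (52489 rows matched). GC content is the mean over a gene's transcripts, weighted by length. Ratios are KO to WT in CPM without a pseudocount, for genes at 1 CPM or more in either library, with a count of 0 set to 3 reads. Intervals are exact 95% Clopper-Pearson intervals conditional on the summed reads; reads without molecular identifiers are not independent molecules. The correction subtracts the median log2 ratio of genes with 100 reads or more in the same of 10 GC by 4 length bins, so it also takes away real differences tied to these properties. With 1 library per group no test was possible.

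The genes and lists were chosen with earlier results of these data known. Named genes are the 8 members, the highest and lowest of each list at 1 CPM, a set of representatives such as Spi1, and the 2 protein-coding genes nearest in log2 FPKM to each of Csf1r, Csf2ra, Csf3 and Csf3r; Il3ra, Hmgxb3, Zfp36l2, Elavl1 and Flt3l are named as list extremes or for overlap, and Cxcr2, Fpr1 and Ngp were named after their values were seen. The highest gene of 1 list is not reported here. The AU-rich element and promoter motifs were chosen after these data were seen, and for each gene the transcript with the longest coding sequence was used. Scaling, filter and pseudocount alternatives were tried. Steps were tested on simulated counts. Software was Python 3.11.15, numpy 2.4.6, pandas 2.3.3, scipy 1.17.1, R 4.3.3 with edgeR 4.0.16 for TMM factors alone, and blastn 2.17.0.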

Additional observations from a re-analysis of the deposited data

How the results depend on the processing

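Of the settings tried, the correction for GC content and length changed the most ratios of the 7 genes. It took the KO to WT ratio of Csf1 to 1.02, on the other side of 1, of Csf1r to 0.657, of Csf3r to 0.583, of Csf2rb2 to 0.512, of Csf2rb to 0.431 and of Csf2ra to 0.321; Csf3 stayed inside its counting interval. The count of these genes at least 2-fold lower went from 6 to 3, and that of all genes from 1748 to 921. It was 6 under each of the other settings: 5 scalings, 2 pseudocounts and 2 filters. With 1 added to each FPKM, Csf2rb was at 0.372 and Csf2rb2 at 0.428, and 707 of all genes were lower and 118 higher. Totals without the 50 most abundant genes shifted all log2 ratios by 0.10 and put Csf1 at 0.750. Without a filter 1902 genes were higher, and at 5 CPM or more 194 were. The lower share was 64.2% without the 50 most abundant genes, 57.8% without a filter, 85.7% with 1 added and 86.2% at 5 CPM or more. With the correction, medians went to -0.38 for the IL-3, IL-5 and Il34 list (0 at 2-fold lower), -0.54 for transducers (6 lower), -0.47 for feedback and target genes (2 higher), -0.96 for myeloid factors, -1.45 for T and NK cells, -0.12 for stellate cells and fibroblasts and, across 0, to -0.25 for monocytes and dendritic cells. Counts at 2-fold lower went to 1 for AU-rich element binding genes, 2 for neutrophils, and 0 for leukocytes in general and for endothelium. Apart from the correction's own construction, the cause of these shifts was not tested. No paired analysis was possible because each genotype has 1 library. Depth limits Csf2, at 2 reads in each library.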
